A study of Mus musculus with 8 samples.

Results

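Cathepsins are the acid proteases of the lysosome, and cystatin C (Cst3) is the secreted inhibitor of those among them that use an active-site cysteine. A set of 10 such genes, named by their symbols, is described here in the CD45+ (leukocyte) fraction of mouse mammary tumors: Ctsa, Ctsb, Ctsc, Ctsd, Ctsh, Ctsk, Ctsl, Ctss, Ctsz and Cst3. All 10 were found among the 32285 genes of the count matrices. Each mouse carried a mammary tumor grown from the triple-negative breast cancer line E0771 or from a resistant derivative of it, E0771-Res1 or E0771-Res2, and tumors were taken at day 18 after implantation. E0771 is a C57BL/6 mouse line and the hosts were female C57BL/6 mice. The study obtained each resistant line from a tumor that had relapsed after paclitaxel plus anti–PD-1, so each stands for the relapse it came from, and the sample labels name no treatment of the mice used here. There were 2 parental mice (labelled naive E0771, replicates 1 and 3, with another parental mouse not analysed here), 3 Res1 mice and 3 Res2 mice. The paper states that cells of the 3 tumor models were tagged with multiplexing oligos and pooled before 10x 3′ single-cell RNA-seq. The cells of each mouse are told apart by their CellPlex tag.

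Of 11430 deposited cells, 10605 were kept, with 500 to 6000 genes and a mitochondrial share under 10%. The deposited cells of a mouse held 5036667 to 18894504 unique molecular identifiers (UMIs), with a median of 5589 to 8160 per kept cell. No cell barcode was shared between mice. Cells were sorted into classes by marker UMIs that include no cathepsin or cystatin. Macrophages (2328 cells) had at least 10 UMIs of C1qa, a complement gene of tissue macrophages. Monocytes (3628 cells) had at least 10 UMIs over a set of monocyte genes that included Ly6c2, Plac8, Ccr2, Vcan, Chil3 and Hp, and dendritic cells (351) and lymphoid cells (663) at least 5 UMIs over their own markers, each with at most 2 UMIs of C1qa. The names were checked on markers outside the gates. A further 6 macrophage genes summed to 11608–15155 counts per 1000000 (CPM) in the macrophages against 1382–1928 in the monocytes, 5 further dendritic genes to 1423–2492 CPM in the dendritic cells against 58.9–203 in the other 3 classes, and 5 further lymphoid genes to 2095–2883 CPM in the lymphoid cells against 29.7–114 in the others. The 6 macrophage genes were C1qb, C1qc, Adgre1, Mrc1, Ms4a7 and Csf1r. C1qb and C1qc go with the gate gene C1qa, so that sum was partly set by the gate. Cells with 3 to 9 C1qa UMIs (1079) and cells in no gate (2556) were kept apart. A level below is the gene's CPM among the gene UMIs of that class in 1 mouse. Because these are counts of 3′ ends and not per length, levels are compared between mice and classes, never between genes.

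Cathepsins are made as inactive precursors that are sorted to the lysosome, largely by the mannose 6-phosphate receptors, and activated there by acid and by other proteases such as legumain (Lgmn). Ctsd is an aspartic endopeptidase, Ctsa a serine carboxypeptidase that also shields other lysosomal enzymes, and the rest are cysteine proteases. Ctsl and Ctss trim the invariant chain that blocks major histocompatibility complex class II molecules, Ctsc (dipeptidyl peptidase I) activates granule serine proteases, Ctsb, Ctsh and Ctsz trim the ends of proteins, and Ctsk is the collagenase by which osteoclasts dissolve bone matrix.

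The genes lie on 6 chromosomes of the mouse genome (GRCm38, GENCODE M21). Ctsk (chr3:95499256-95509362, plus strand) and Ctss (chr3:95526786-95556403, plus strand) are head-to-tail neighbours with 17423 bases between them. Ctsa (chr2:164832873-164841032), Ctsz (chr2:174427493-174439039) and Cst3 (chr2:148871722-148875692) lie apart on chromosome 2, Ctsc (chr7:88278085-88310888) and Ctsd (chr7:142375911-142388038) on chromosome 7, Ctsb at chr14:63122462-63145923, Ctsh at chr9:90054152-90076089 and Ctsl at chr13:64359337-64370890.

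The stretches before the starts of the neighbours Ctsk and Ctss are shown because these genes lie side by side and yet differed in how their levels varied across cells and tumor lines. Each is the 250 bases before the RefSeq start in GRCm38.p6, on the plus strand (Ctsk at chr3:95498960-95499209, Ctss at chr3:95526536-95526785).
Ctsk: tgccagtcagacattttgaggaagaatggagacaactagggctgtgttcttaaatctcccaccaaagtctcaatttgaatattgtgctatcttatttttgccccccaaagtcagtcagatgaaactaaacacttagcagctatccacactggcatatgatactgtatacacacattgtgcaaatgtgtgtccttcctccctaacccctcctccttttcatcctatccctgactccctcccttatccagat
Ctss: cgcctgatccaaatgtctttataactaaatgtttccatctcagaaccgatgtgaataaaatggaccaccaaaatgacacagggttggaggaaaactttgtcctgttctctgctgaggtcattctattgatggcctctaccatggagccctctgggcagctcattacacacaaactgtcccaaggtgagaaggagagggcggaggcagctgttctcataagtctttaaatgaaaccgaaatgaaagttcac
The Ctsk stretch was 43.2% G or C and held 0 CpG dinucleotides, and the Ctss stretch was 44.8% G or C with 4. Both were searched on both strands for CACGTG, the letters of the E-box bound by the TFEB family of lysosomal gene regulators, and for TCACGTGA, a longer form that contains it. Neither held a match.

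RefSeq windows were found for 8 of the 10 genes (9 windows, 2 of them for Ctsa). CACGTG was present in windows of Ctsa, Ctsd and Ctsl and in 6.02% of 32851 RefSeq windows of the same length, and TCACGTGA in windows of Ctsa and Ctsd and in 0.785% of all. The matches, with the E-box in capitals and a few bases to either side, were these.
Ctsd, 99 bases before the start (chr7:142387908-142387937, minus strand): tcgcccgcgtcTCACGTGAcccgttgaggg
Ctsd, 245 bases before the start (chr7:142388056-142388077, minus strand): tccccCACGTGacctgtatcca
Ctsa, 13 bases before the start (chr2:164833749-164833772, plus strand): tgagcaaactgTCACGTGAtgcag
Ctsl, 236 bases before the start (chr13:64370740-64370767, minus strand): gcgttagaagcCACGTGctgatctaaat
The Ctsd window had the highest share of G or C of the 9, at 67.2%, with 27 CpG. Each distance is to the RefSeq start of its window, which can differ from the GENCODE position given above. By the GENCODE positions the Ctsa site, the Ctsd site at 99 bases and the Ctsl site lie within their genes. The other Ctsa window, next to the GENCODE start, held no match. These are descriptions of letters, and no binding was measured.

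Which leukocytes carried these transcripts was compared first, between classes of the same 8 mice, with edgeR's quasi-likelihood test on counts summed per mouse and class, the mouse as a block and p-values adjusted by Benjamini-Hochberg across every gene in the fit. Macrophages exceeded monocytes in 7 of the 10 genes, led by Ctsl and Ctsd, while Cst3 was slightly lower and Ctsc and Ctsz did not pass. Dendritic cells had far more Cst3 and somewhat more Ctsh than monocytes and less of the other 8. Lymphoid cells had less of 9, the exception being Ctsd.

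Ctsl spanned 495.5 to 828.3 CPM (median 700.2) in the macrophages of the 8 mice and 220.8 to 300.9 CPM (median 250.6) in their monocytes. The ranges did not overlap, and the log2 fold change was 1.26 ± 0.11 (SE; adjusted p = 2e-11, edgeR). Ctsd spanned 856.1 to 1520 CPM (median 1172) in macrophages and 408 to 937.6 (median 598.9) in monocytes. Those ranges met only through the monocytes of Res2 replicate 1 (937.6 CPM). Within each mouse Ctsd was higher in macrophages in 8 of 8 (log2 fold change 0.83 ± 0.10, adjusted p = 1.36e-08, edgeR). Ctsb (0.66 ± 0.12), Ctsh (0.62 ± 0.12), Ctsa (0.35 ± 0.08) and Ctss (0.35 ± 0.12) were each also higher in 8 of 8 mice. Ctsk was higher in 7 of 8 (log2 fold change 0.46 ± 0.15, adjusted p = 0.00841, edgeR), a call that was lost under DESeq2 (adjusted p = 0.0987), at 20 or more C1qa UMIs (0.216), with cells thinned to 2500 UMIs (0.0939) and without the mouse block (0.46). Cst3 was lower in 8 of 8 mice by a small amount (-0.28 ± 0.11, adjusted p = 0.0322, edgeR). Ctsc was level between the classes (0.01 ± 0.10, adjusted p = 0.937, edgeR) and Ctsz differed by 0.14 ± 0.10 (adjusted p = 0.232). Yet by CPM, Ctsz was higher in macrophages in 8 of 8 mice and Ctsc in 7 of 8. The counts of mice use CPM without TMM scaling and the fold changes use TMM, so the 2 need not go together. So 8 of 10 genes were called, against 55.1% of all 8148 genes tested, and the median log2 fold change over the 10 was 0.41 beside 0.03 over all genes. The smaller differences were the less stable. TMM scaling lowered the median gene by 0.13 on the log2 scale compared with library size alone, and with library size alone Cst3 was not called (-0.15, adjusted p = 0.197) and Ctsz was (0.27, adjusted p = 0.0154). Without parental replicate 1 or without Res2 replicate 2, Cst3 also missed the threshold (adjusted p = 0.0566 and 0.0925), as it did under DESeq2 (0.0599), at 20 or more C1qa UMIs (0.0511), with thinning (0.0912) and without the block (0.0723). Ctss missed it without the block (adjusted p = 0.0535).

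In dendritic cells Cst3 spanned 13601 to 23149 CPM (median 18933), against 2996 to 4071 CPM (median 3257) in monocytes. Every dendritic value lay above every monocyte value (log2 fold change 2.47 ± 0.12, adjusted p = 2.72e-19, edgeR). The dendritic cells were a median 3.42% of the kept cells of a mouse and held a median 17.4% of its Cst3 UMIs. Ctsh, the aminopeptidase, spanned 604.7 to 1196 CPM (median 885.4) in dendritic cells and 566.4 to 660.6 CPM (median 618.7) in monocytes, with a log2 fold change of 0.61 ± 0.12 (adjusted p = 7.62e-05, edgeR). Between macrophages and dendritic cells Ctsh differed by 0.01 ± 0.12 (adjusted p = 0.978), the only one of the 10 not called there. The endopeptidases and the rest were lower in dendritic cells than in monocytes. Ctsb fell by 2.24 ± 0.13 on the log2 scale, Ctsd by 2.16 ± 0.14, Ctsc by 2.07 ± 0.12 and Ctsl by 1.96 ± 0.18. Ctsa (-1.39 ± 0.10), Ctss (-1.10 ± 0.12) and Ctsz (-0.40 ± 0.11) were lower by less. All 10 genes were called in dendritic cells against monocytes, where 46.2% of genes were, and 9 of 10 in macrophages against dendritic cells, where 50.5% were. Ctsk rested on 1 to 4 UMIs per mouse in the dendritic cells (1.35 to 16.1 CPM), so its call there (-2.77 ± 0.41) is set by very few molecules.

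**Figure D1:**
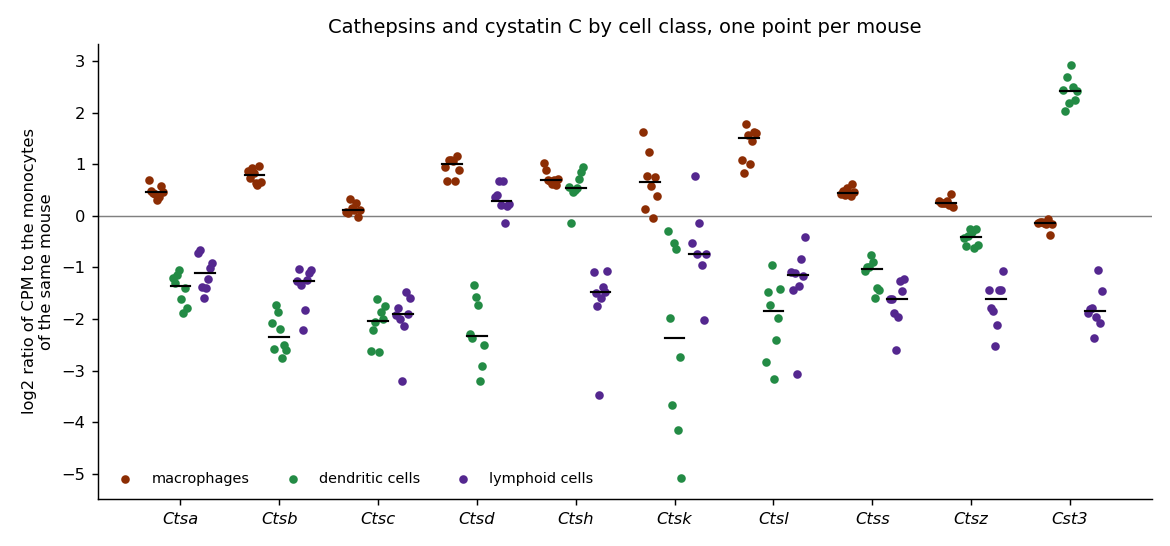
Level of each gene in macrophages, dendritic cells and lymphoid cells relative to the monocytes of the same mouse (y axis, log2 ratio of CPM; 1 point per mouse, 8 mice; bars, medians). Cst3 lies far above the line in dendritic cells and Ctsl above it in macrophages, lymphoid Ctsd lies near the line, the other lymphoid medians lie below it (with 1 parental mouse above it for Ctsk), and the Res1 mouse whose lymphoid cells held no Ctsk UMI has no point there.

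In lymphoid cells Ctsd stood apart from the other genes. It spanned 628.3 to 925.2 CPM (median 740.7), beside 598.9 CPM as the monocyte median, and its log2 fold change against monocytes was -0.04 ± 0.10 with TMM scaling (adjusted p = 0.778) but 0.33 ± 0.10 with library size alone (adjusted p = 0.0049, edgeR), since the scaling moved the median gene by -0.36 in this comparison. The other 9 genes were lower, from -1.18 ± 0.24 for Ctsk to -2.29 ± 0.12 for Ctsc, where 68.4% of genes were called. Ctsk was lower in lymphoid cells in 7 of 8 mice, with parental replicate 3 the exception, and missed the threshold without the block (adjusted p = 0.0505). In each mouse the lymphoid level was divided by that of its macrophages. This ratio had a median of 0.645 for Ctsd (0.509 to 0.825) and medians of 0.198 to 0.332 for the other genes apart from Ctsk. Droplets also take up free RNA, so the same ratio was taken for myeloid genes that lymphoid cells should lack, and its median was 0.281 for Lyz2 (lysozyme; 0.0932 to 0.479) and 0.03 for C1qb. The median ratios of the 8 genes other than Ctsd and Ctsk were near that of Lyz2 but above that of C1qb. Lyz2 was itself lower in macrophages than in monocytes (log2 fold change -1.63), which raises its ratio. C1qb goes with C1qa, which was gated at 10 or more UMIs in macrophages and at most 2 in lymphoid cells. The gates thus lower the C1qb ratio. Cells of the tumor models were pooled before 10x, so free RNA need not come from the mouse whose macrophages are the divisor. The references differ, so free RNA and expression by lymphoid cells cannot be told apart for these 8 genes. Every Ctsd ratio was above the highest Lyz2 ratio. With each cell thinned to 2500 UMIs, 55.8–71% of lymphoid cells held a Ctsd UMI, against 9.52–23.8% of dendritic cells of the same mice. The part of free RNA in lymphoid Ctsd was not tested.

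Ctsk differed from the other 9 genes in how its transcripts were spread over cells. With macrophages thinned to 2500 UMIs (2314 cells, leaving out 2 parental, 7 Res1 and 5 Res2 cells with fewer), a median of 8.11% of the macrophages of a mouse held a Ctsk UMI (2.94–18.4%). The corresponding medians were 55.6% for Ctsl, 66.7% for Ctsa, 77.2% for Ctsd and between 82.1% and 99.9% for the others. The 10% of macrophages with the most Ctsk UMIs held a median of 96.9% of them, against medians of 21.8% to 45% for the other genes. Where under 10% of macrophages hold a UMI, the top 10% hold all of them. This share thus follows in part from the detection just given and is not a separate sign. Detection falls with abundance, so a rare transcript is concentrated by counting alone, and how much of this came from abundance was not tested.

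Within the macrophage gate Ctsk also ran against C1qa. Macrophages with 10 to 29 C1qa UMIs (964 cells) were compared with those with 30 or more (1364 cells), which were also deeper, with median UMIs of 9510–13542 per mouse against 5844–8864. Ctsk was 82.1 and 56.8 CPM in the former in the parental mice, 48.3, 131 and 43.8 CPM in the Res1 mice and 185, 168 and 160 CPM in the Res2 mice. In the macrophages rich in C1qa it was 36 and 18.9 CPM, 24.9, 22.4 and 14.5 CPM, and 134, 87.4 and 132 CPM in the same mice. It was lower in the C1qa-rich cells in 8 of 8 mice, at a median ratio of 0.477 (0.171 to 0.824). No other gene of the 10 was lower in more than 2 mice. Ctsc (median ratio 1.43, higher in 7 of 8), Ctsl (1.22, 7 of 8), Ctsh (1.2, 8 of 8), Cst3 (1.13, 8 of 8) and Ctsa (1.11, 8 of 8) were higher there, and Ctsd (1.08), Ctsz (1.06), Ctss (1.05) and Ctsb (1.03) were close to level. These are descriptions within the macrophage gate, with no test.

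**Figure D2:**
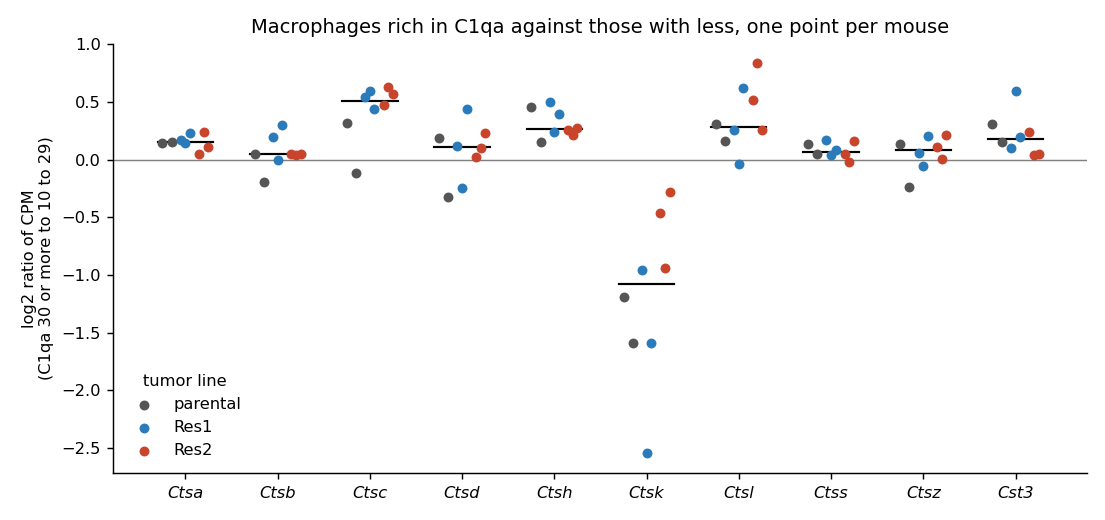
Level of each gene in macrophages with 30 or more C1qa UMIs relative to those with 10 to 29 in the same mouse (y axis, log2 ratio of CPM; 1 point per mouse, colored by tumor line; bars, medians over 8 mice). Ctsk is the gene whose 8 points all lie below 0, at a median ratio of 0.477, and the Res2 points lie nearest to 0.

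The tumor lines were then compared, each class in a fit of its 8 mice that shares 1 estimate of the spread (edgeR's quasi-likelihood test, adjusted over all genes tested). The contrasts share groups, so they are given side by side. Res2 tumors had more Ctsk than parental and Res1 tumors in both macrophages and monocytes, by fitted differences of 3.3- to 6.2-fold, the largest among the 10 genes. The parental levels lay partly within the range of lymphoid cells, given further on, so the folds over parental tumors may be over a level that includes free RNA, whose part was not tested. That lymphoid range rested on only 0 to 39 Ctsk UMIs per mouse. Ctsc was lower in both classes against both lines. Ctsb and Ctsd were moderately higher in macrophages against both lines and in monocytes against Res1. None of the 10 passed between Res1 and parental tumors in any class.

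In macrophages Ctsk was 49 and 31.3 CPM in the parental mice, 29.5, 54.7 and 23.8 CPM in the Res1 mice and 152, 128 and 142 CPM in the Res2 mice, from 27 to 561 UMIs per mouse. Every Res2 mouse lay above every parental and Res1 mouse, and the parental and Res1 values overlapped. The log2 fold change was 1.73 ± 0.23 for Res2 against parental (adjusted p = 0.0013, edgeR), 2.10 ± 0.19 for Res2 against Res1 (adjusted p = 1.92e-04) and -0.37 ± 0.27 for Res1 against parental (adjusted p = 0.628). In monocytes the levels were 15.9 and 28.5 CPM (parental), 17.2, 23.2 and 16 CPM (Res1) and 156, 75.7 and 108 CPM (Res2). Again all Res2 mice were above the rest, at 2.46 ± 0.29 against parental (adjusted p = 4.73e-04, edgeR) and 2.63 ± 0.25 against Res1 (adjusted p = 7.48e-05). The Res2-to-parental change in macrophages minus that in monocytes was -0.79 ± 0.31, which did not pass (adjusted p = 0.445, edgeR). All 4 of these Ctsk calls held under each of 19 alternatives. For the monocyte calls the alternative of 20 or more C1qa UMIs left the cells unchanged, so it could not alter them. A threshold of 10 C1qa UMIs per 10000 UMIs hardly changed the monocytes (2.455 against 2.456 for Res2 against parental). Leaving out cells with stromal markers also removed few of them. In each contrast, leaving out a mouse of the line not compared removed none of the mice compared. The number of alternatives thus overstates how strongly these calls were tried. In the order given, the log2 fold change spanned 1.52–2.14, 1.90–2.36, 2.01–2.85 and 2.33–2.86.

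Res2 mice were also highest outside these gates, as values without a test. In cells with 3 to 9 C1qa UMIs Ctsk was 23.5 and 26.1 CPM (parental), 60.6, 39.8 and 70.6 CPM (Res1) and 227, 102 and 191 CPM (Res2). There the 3 Res1 mice also lay above both parental mice, unlike in macrophages and monocytes. In the cells of no gate it was 30.9 and 31.7 CPM, 45.6, 70.6 and 16.1 CPM, and 196, 182 and 226 CPM. Cells of no gate held a median of 26.1% of a mouse's Ctsk UMIs, beside 18.7% of all its UMIs. Macrophages held 29.7% of the Ctsk UMIs beside 24.9% of all UMIs, and monocytes 24.5% beside 35.2%.

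**Figure D3:**
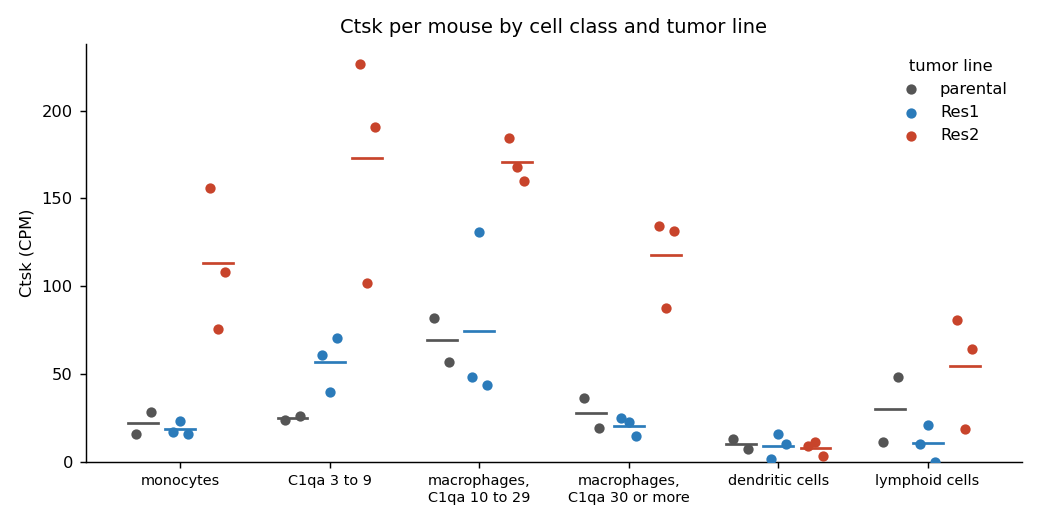
Ctsk level (y axis, CPM) per mouse in monocytes, cells with 3 to 9 C1qa UMIs, macrophages with 10 to 29 and with 30 or more, dendritic cells and lymphoid cells (points, mice; bars, means of 2 parental, 3 Res1 and 3 Res2 mice). The Res2 points sit above the parental and Res1 points in the first 4 classes, and all dendritic values rest on 1 to 4 UMIs.

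More macrophages of Res2 tumors held a Ctsk UMI. After thinning, the share was 4.29% and 4.04% in the parental mice, 5.21%, 11% and 2.94% in the Res1 mice and 17.5%, 11.6% and 18.4% in the Res2 mice. Without thinning the means were 11.9%, 13.5% and 29.8%. In monocytes the thinned share was 2.59% ± 0.07 (SD, n = 2) in parental, 3.81% ± 0.26 (SD, n = 3) in Res1 and 13.1% ± 5.50 (SD, n = 3) in Res2 tumors. The thinned share in lymphoid cells, taken as a comparison, was 3.78% ± 3.88 (SD, n = 2) in parental, 2.03% ± 2.38 (n = 3) in Res1 and 5.74% ± 4.18 (n = 3) in Res2 tumors. In dendritic cells it was 5.79% ± 1.45 (SD, n = 2), 1.35% ± 1.44 (n = 3) and 0% in the same order. These classes differed, so neither gives the level of free RNA. The parental macrophage share was 4.16% ± 0.17 (SD, n = 2). This share and the parental and Res1 shares of monocytes lay within the wide spread of the lymphoid shares. That comparison is loose, because few lymphoid cells were thinned (97 and 46 in parental, 140, 43 and 77 in Res1 mice). The unthinned lymphoid sums held 7 and 14 Ctsk UMIs in parental and 10, 5 and 0 in Res1 mice. Whether these macrophage and monocyte shares are expression or free RNA was not tested. The Res1 macrophage share was 6.39% ± 4.16 (SD, n = 3), and the Res2 macrophage share was 15.8% ± 3.67 (SD, n = 3). In each Res2 mouse the macrophage and monocyte shares were above the lymphoid share of the same mouse. Res2 macrophages were also shallower, with median UMIs of 6989–8735 per mouse against 9902–11458 in the others, and thinning left Ctsk at 1.87 for Res2 against parental. Fibroblasts can express Ctsk. The 11 tumor and stromal genes examined (Epcam, Krt8, Krt18, Krt7, Col1a1, Col1a2, Col3a1, Sparc, Dcn, Lum and Postn) summed to 12.4–22 CPM in the parental, 9.25–16.4 CPM in the Res1 and 12.1–21.1 CPM in the Res2 macrophages, with 3 to 9 of the 11 at 0. Leaving out cells with 3 or more UMIs of these genes gave 1.72 for Ctsk, but took out only 0 to 4 macrophages per mouse. Cells with 10 or more of them and at most 2 UMIs of C1qa numbered 0 or 1 per mouse. They held at most 0.466% of a mouse's Ctsk UMIs. With so few cells neither value can show how much Ctsk came from stromal cells, which was not tested.

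Ctsd and Ctsb moved with Ctsk, by less. In macrophages Ctsd was 947 and 893.8 CPM (parental), 984.5, 1360 and 856.1 CPM (Res1) and 1504, 1520 and 1477 CPM (Res2), and Ctsb was 4568 and 4603, 4192, 4713 and 3668, and 6432, 5876 and 6113 CPM. All Res2 mice were above the others for both. Ctsd rose by 0.69 ± 0.14 against parental (adjusted p = 0.0188, edgeR) and 0.50 ± 0.12 against Res1 (adjusted p = 0.0365), and Ctsb by 0.41 ± 0.10 (adjusted p = 0.0447) and 0.56 ± 0.09 (adjusted p = 0.00234). In monocytes both passed against Res1 (0.68 ± 0.15 and 0.62 ± 0.12) and missed the threshold against parental (0.64 ± 0.17, adjusted p = 0.0568, and 0.52 ± 0.14, adjusted p = 0.0609). Ctsc went the other way. It was 1394 and 1346 CPM in parental, 1505, 1469 and 1197 CPM in Res1 and 1104, 935.8 and 886.8 CPM in Res2 macrophages. Every Res2 mouse lay below every parental and Res1 mouse, and the parental and Res1 values overlapped. In Res2 macrophages Ctsc fell by 0.50 ± 0.11 against parental (adjusted p = 0.0299, edgeR) and by 0.50 ± 0.10 against Res1 (adjusted p = 0.0117). In monocytes it fell by 0.53 ± 0.10 (adjusted p = 0.0141) and by 0.43 ± 0.09 (adjusted p = 0.0203). Ctss passed only for Res2 against Res1 in macrophages (0.36 ± 0.09, adjusted p = 0.0374). Ctsa, Ctsh, Ctsl, Ctsz and Cst3 passed in no line contrast of macrophages or monocytes. Yet every Res2 mouse also lay above every other mouse for Ctsa. In macrophages it was 652.8–661.4 CPM in Res2 mice against 507.3–598.5 CPM in the others. In monocytes it was 435.3–504.9 CPM against 371.1–417.2 CPM. Separation of mice was thus not limited to called genes, and its share over all genes was not counted. Apart from Ctsk the changes from parental to Res2 spanned -0.50 to 0.69 in macrophages and -0.53 to 0.64 in monocytes.

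In counts, 4 of 10 genes were called for Res2 against parental in macrophages (2.22% of all genes were) and 5 for Res2 against Res1 (3.36%). In monocytes 2 and 4 were called (2.53% and 2.72%). Res1 against parental gave 0 of 10 in edgeR in macrophages (0.672% of all genes; 2 of the 10 had an unadjusted p under 0.05) and 0 of 10 in monocytes (0.0215%; 0 unadjusted). The differences between macrophage and monocyte changes gave 0 of 10 for Res1 (0.0713% of all genes) and 0 of 10 for Res2 (0.469%), with 3 at an unadjusted p under 0.05 in each. DESeq2 also called 0 in these 4. These counts rested on few mice. In Res2 against parental macrophages, leaving out parental replicate 1 or 3 or Res2 replicate 2 or 3 left Ctsk alone called, and leaving out Res2 replicate 1 left 2 genes. In monocytes 1 gene remained without parental replicate 1 or 3 or Res2 replicate 3. Against Res1, 3 remained in macrophages without Res1 replicate 1 or Res2 replicate 1 or 2 and 2 without Res2 replicate 3, and in monocytes 1 remained without Res2 replicate 1 or 3.

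**Figure D4:**
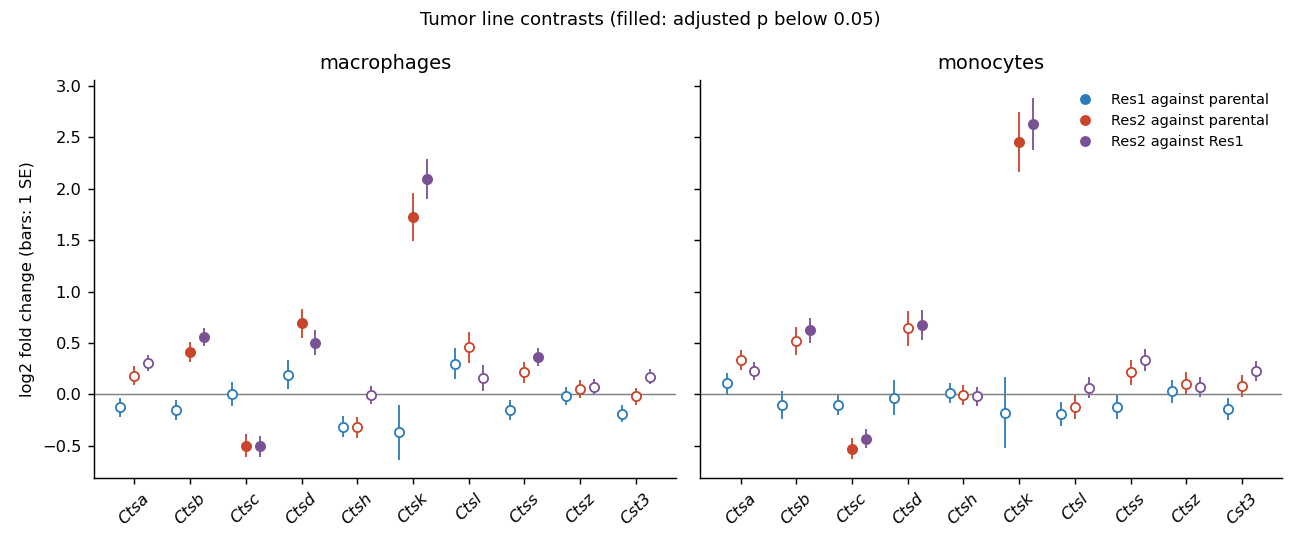
Log2 fold change between tumor lines for each gene in macrophages (left) and monocytes (right), with bars of 1 SE from the edgeR fits; filled points passed an adjusted p of 0.05 and open points did not. Ctsk in Res2 lies at 1.73 to 2.63, the other genes between -0.53 and 0.69, and no Res1 against parental point is filled.

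Dendritic and lymphoid cells were compared the same way. In dendritic cells 0 of the 9 genes tested passed in any line contrast (0%, 0.0206% and 0.0413% of 4844 genes for Res1 against parental, Res2 against parental and Res2 against Res1, with 1 of the 9 at an unadjusted p under 0.05 in each and 0 called by DESeq2), and Ctsk was too low to be tested. The dendritic sums held 17 to 86 cells a mouse. In lymphoid cells 0 of 10 passed for Res1 against parental (0.203% of all genes; 6 at an unadjusted p under 0.05) and 0 for Res2 against parental (0.13%; 5 unadjusted), with 0 by DESeq2 in both, and 5 were higher in Res2 than in Res1 (1.45%). These were Ctsb (1.27 ± 0.15, adjusted p = 1.2e-04, edgeR), Ctss (1.16 ± 0.17, adjusted p = 9.61e-04), Ctsz (0.90 ± 0.17, adjusted p = 0.00833), Cst3 (0.75 ± 0.15, adjusted p = 0.0158) and Ctsa (0.64 ± 0.15, adjusted p = 0.0344). Lymphoid Ctsb was 867.1, 570.6 and 668.6 CPM in Res1 and 1790, 1384 and 1865 CPM in Res2. Some macrophage genes of the related lists described below were also called higher in these lymphoid sums. They were 3 of 7 tested osteoclast and lipid-laden macrophage genes (log2 fold changes from -0.36 to 2.27). Among the genes of activation and delivery, 2 of 9 tested were called (from -0.55 to 1.45). Gpnmb (2.27), Trem2 (1.98), Fabp5 (1.5) and Lgmn (1.45) were among those called. In the same edgeR fit C1qb (0.34 ± 0.19, adjusted p = 0.585), C1qc (0.47 ± 0.22, adjusted p = 0.463) and Lyz2 (0.36 ± 0.18, adjusted p = 0.51) were not. Lymphoid cells held at most 2 C1qa UMIs by their gate in every line, which limits how far C1qb and C1qc could differ. The part of free macrophage RNA in the 5 calls was not tested. Because cells of the tumor models were pooled, such RNA need not come from macrophages of the same line. Without Res1 replicate 2 or Res2 replicate 1 only 3 genes were called, and without Res1 replicate 3 or Res2 replicate 3 only 2. Lymphoid Ctsk was 11 and 48.5 CPM in parental, 10.3, 21.1 and 0 CPM in Res1 and 80.7, 18.6 and 64.2 CPM in Res2 tumors. The value of 0 counts allows up to 6.66 CPM (3 counts), and Res2 against Res1 did not pass (adjusted p = 0.0571).

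Within the macrophages of a mouse the other genes varied with Ctsk to unequal degrees. Over thinned macrophages, cells with a Ctsk UMI were compared with those without it in each mouse. The cells with it were few in some mice. They averaged 4.16% of the thinned macrophages in the parental mice (210 and 99 cells), a share within the wide spread of the lymphoid shares. In the Res1 mice they averaged 6.39% (of 576, 109 and 170 cells). They held more Ctss (median ratio 1.49), Ctsd (1.44), Ctsb (1.40) and Ctsz (1.17) in 8 of 8 mice and less Ctsc (0.72) in 8 of 8. Ctsl (1.24) was higher in 7 of 8 mice, Ctsa (1.07) in 6, Ctsh (0.96) in 4 and Cst3 (0.89) in 1. The stefin Cstb, a cytosolic inhibitor of cysteine cathepsins, was higher in 8 of 8 (1.42), as was Psap, which encodes prosaposin (1.32). The 10 genes whose thinned levels correlated best with Ctsk over macrophages were, by the mean Pearson r of 8 mice among 4873 genes, Gpnmb (0.31), Fabp5 (0.23), Il7r (0.22), Lgals3 (0.19), Mmp12 (0.18), Igf1 (0.18), Ctss (0.17), Gpr137b (0.17), Clec4d (0.16) and Plin2 (0.16). The 5 that correlated best with Ctsd were Ctsb (0.40), Psap (0.27), Ftl1 (0.26), Gpnmb (0.22) and Fabp5 (0.22), and the 5 for Ctss were B2m (0.36), Ctsb (0.33), H2-D1 (0.32), Itm2b (0.31) and Psap (0.30). Cells of a mouse are not replicates, and these weak correlations over sparse counts only describe which genes ranked highest. The Ctsk to Ctsc correlation was negative (-0.11).

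Related genes outside the 10 were counted from lists, and the values given for them are log2 fold changes. The lists were chosen with earlier results of these data known. Their counts beside the share of all genes are therefore descriptions and not independent evidence. Of 11 genes known with Ctsk from osteoclasts and lipid-laden macrophages, 9 were tested in macrophages and 5 were higher in Res2 than in parental tumors (2.22% of all genes were called), namely Atp6v0d2, a subunit of the lysosomal proton pump (2.86), Gpnmb (1.68), Lpl, lipoprotein lipase (1.60), Trem2, a lipid receptor (1.27), and, named after its value was seen to complete the count, Fabp5, a fatty acid carrier (0.73). The same 5 were higher in Res2 than in Res1 (3.36% of all genes). From parental to Res1, Lpl (1.13) and Trem2 (0.86) were higher, 2 of 9 where 0.672% of all genes were called. In monocytes Gpnmb (2.44) and Fabp5 (0.98) were higher in Res2 than in parental tumors, 2 of 9 where 2.53% were. Acp5, the tartrate-resistant acid phosphatase of osteoclasts, was 1.93 higher in macrophages than in monocytes on the log2 scale but passed in no Res2 contrast of macrophages. No tested gene of the other cathepsins (2 of 5 tested), the cystatins and stefins (2 of 8), the genes of activation and delivery (9 of 10) or the TFEB family regulators (4 of 4) passed from parental to Res2 macrophages. Against Res1, Psap passed in macrophages (0.39), and Psap (0.39) and Lgmn (0.51) in monocytes.

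Between classes these lists were more divided, and the counts called (4 of 9, 2 of 4 and 2 of 2 in macrophages, where 55.1% of all genes were called) are given beside that background, with nothing read from them about the lists. In macrophages against monocytes Lgmn (1.13), Glb1 (0.82), Gnptg (0.81) and Nagpa (0.49) were higher among 9 genes of activation and delivery, Tfec (-0.85) and Tfeb (-0.38) were lower among the 4 regulators, and both Cstb (-0.27) and Cst7 (-0.36) were lower. In dendritic cells against monocytes (46.2% of all genes called) all 4 regulators and Cstb (-1.57) were lower and Cst7 (1.32) was higher. Lymphoid cells (68.4% of all genes called) were higher than monocytes in Ctsw (6.02), a cathepsin of cytotoxic lymphocytes, and in Cst7, or cystatin F (4.21), which inhibits Ctsc. Ctsw spanned 341.7 to 735.5 CPM in lymphoid cells and 1.85 to 9.27 CPM in macrophages and monocytes.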

How the data were processed

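CD45+ cells from 8 mammary tumors were profiled by 10x 3′ v3.1 single-cell RNA-seq with CellPlex tags. The deposited matrices hold UMI counts per gene and cell, made by the authors with Cell Ranger 6.1.2 per the file headers, and the submitters' processing notes name mm10 and Seurat. No cell annotation was used, no doublet caller was run, and whether doublets were removed before deposit is not given in the sources used here. The 10 genes, the gates and the lists were chosen with earlier results of these data known. Counts were summed per mouse and class over 23633 genes, without mitochondrial, Rpl, Rps and Gm genes (8652), which also sets the CPM. Sums were fitted with edgeR 4.0.16 (TMM, filterByExpr, quasi-likelihood test, Benjamini-Hochberg threshold 0.05), in R 4.3.3. Scripts were tested on simulated data. The mouse was the block between classes, since every class came from the same animals. Between lines same-numbered mice did not deviate together (r from -0.18 to 0.07), so no block was used. Replicates were separate mice by label. The chi-square per degree of freedom between replicate sums was 2.69 to 13.2. That value cannot tell separate mice from separate cells of 1 mouse, because cells differ in type. The 10 genes were named in every comparison, and at most 4 of each related list in a comparison, with 1 exception stated where it stands. Alternatives were DESeq2 1.42.0, library size alone, no count filter, all deposited cells, other C1qa thresholds, thinning to 2500 UMIs, leaving out cells with stromal markers or the 5% with most UMIs, keeping the dropped genes, adding or dropping the block, and leaving out each mouse. UMI depth limits rare transcripts such as Ctsk, and intervals and floors cover counting error only.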

Additional observations from a re-analysis of the deposited data

How the results depend on the processing

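Among fitted log2 fold changes, 663 of 688 values under settings that kept all mice and 444 of 504 that left out 1 mouse kept their direction and their side of the threshold. The number of genes called moved by over 1.5 times under these settings, for which the cause was not tested. Without the replicate block 5 were called in macrophages against monocytes. Without the 5% of cells with most UMIs 3 were called for Res2 against Res1 in macrophages. DESeq2, no filter on low counts and thinning each gave 4 for Res2 against parental in monocytes. In lymphoid cells no filter gave 2 for Res1 against parental, 2 for Res2 against parental and 8 for Res2 against Res1, thinning gave 1 and 3 for the latter pair, and the replicate block, though the numbers pair no mice across lines, gave 3 and 8. No filter gave 1 in each test of the difference between macrophages and monocytes. Leaving out each mouse in turn gave 0 to 1 (Res1 against parental), 1 to 5 (Res2 against parental) and 2 to 5 (Res2 against Res1) in macrophages, 1 to 5 for each Res2 contrast in monocytes, 0 to 1 for Res1 against parental and 2 to 6 for Res2 against Res1 in lymphoid cells, and 0 to 1 in each test of the difference between classes. In that test the single call came without Res1 replicate 3, as it did for Res1 against parental in macrophages, and in lymphoid Res1 against parental it came without Res1 replicate 1 or Res2 replicate 2. The direction of Ctsk turned only where it was not called. For Res1 against parental, leaving out each mouse gave -0.63 to 0.037 in macrophages (positive without parental replicate 1) and -0.62 to 0.22 in monocytes (positive without parental replicate 3), where thinning gave 0.25. The Ctsk difference between classes spanned -0.79 to 0.65 for Res1 and -1.34 to 0.11 for Res2, positive without parental replicate 1. In macrophages against monocytes Ctsk lost its call under DESeq2 (0.57, adjusted p = 0.0987), at 20 or more C1qa UMIs (0.23, adjusted p = 0.216), with thinning (0.34, adjusted p = 0.0939) and without the block (0.37, adjusted p = 0.46). Of 720 levels recomputed, 53 moved by 1 SD or more, 29 of them with thinning.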
